A study of Danio rerio with 8 samples.

Results

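The tubulin isotypes were taken as all probe sets whose single platform gene symbol begins with tuba, tubb or tubg, which gave 23 of the 15617 probe sets on the array. They named 16 of the 8793 genes with a probe set of a single symbol. Of the probe sets, 11 belonged to 8 alpha-tubulin genes, 8 to 5 beta-tubulin genes and 1 to the gamma-tubulin gene tubg1. The remaining 3 probe sets, of tubgcp2 and tubgcp3, carry the same prefix but encode proteins that bind gamma-tubulin and are not tubulins. The samples came from AB zebrafish at 35 hours after fertilization, all carrying a cd41-GFP transgene in which the itga2b (cd41) promoter, active in thrombocytes and early blood progenitors, drives GFP. Live cells were sorted by GFP fluorescence, and sorted again for purity, into positive and negative fractions, the latter holding every other cell of the embryo that passed the gate, with 4 arrays each, paired as replicates 1 to 4, with RNA amplified linearly in 2 rounds. How many embryos went into a sort, and whether the 4 sorts used different clutches, is not stated in the labels, and the spread behind each p-value may therefore be technical. The number of arrays limits the precision.

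Microtubules are hollow polymers of alpha- and beta-tubulin dimers, and each subunit is encoded by several genes whose proteins, called isotypes, differ mainly in their acidic tails. Gamma-tubulin sits in a ring complex at the centrosome from which new microtubules grow. Some isotypes are made in nearly all cells and others mainly in certain cell types, above all in neurons, whose axons are packed with microtubules. In blood, a microtubule coil shapes the platelet and the nucleated thrombocyte of fish. The beta-tubulin gene tubb1, whose mammalian counterpart is the platelet isotype, was not analysed here.

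The gate itself is not checked by its own gene, since the signal of itga2b stayed under the 40th percentile on 8 of 8 arrays. Leukocyte markers were high in the fraction labelled GFP-positive. Of 12 tested myeloid genes 12 rose, led by alox5ap (at least 32.4-fold higher) and mmp9 (at least 46.4-fold), where "at least" marks a gene that was dim in the lower fraction. Of 4 thrombocyte genes 2 rose, srgn by 4.76 and f13a1b by 2.302 on the log2 scale, and 1 fell, thbs1b (at least 2.25-fold lower). The thrombocyte gene nfe2 was not called (-0.38). Of 12 erythroid genes 9 fell, with log2 differences of -2.32 for epb41b and -1.77 for sptb. The other 3 were not called, the globin genes hbae3 (0.77, higher in 4 of 4 pairs) and hbbe3 (0.33) and slc4a1a (-0.71). The summed signal of the 12 ran from 241594 to 313381 on GFP-positive and from 176893 to 316451 on GFP-negative arrays, so the ranges overlapped. Most of that sum was the signal of the 2 uncalled globin genes, so it says little of the 9 fallen genes. Mean signals on GFP-positive and GFP-negative arrays were 128438 and 80823 for hbae3, and 102972 and 86694 for hbbe3. Of 15 muscle genes 14 fell, with -4.43 for ckma and -4.19 for tpma, and of 5 genes of ciliated cells 2 fell, ift57 (at least 2.38-fold lower) and rfx2 (-1.42). Over all 6541 tested genes, at 1 probe set per gene, 12.8% rose and 18.4% fell.

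Of the tubulin genes, tubb5, tubb4bl, tubb2, tuba2 and tuba8l3 each had 1 probe set called lower in the GFP-positive fraction, and none was called higher. Signals are MAS5 intensities on a linear scale, in arbitrary units, and testing was limited to probe sets brighter than the 40th percentile on 4 or more of the 8 arrays. A probe set dim on most arrays of 1 fraction was tested only if bright in the other, which partly fixed its direction. The difference was tested with limma across all 9801 tested probe sets, with the pair as a block, and is called at an adjusted p under 0.05. Of the 23 probe sets 20 were tested, 5 were called lower and 0 higher. Where a gene has several probe sets, brighter and dimmer only name them, since each probe set has its own brightness per transcript and its signal is no measure of abundance beside another's. Of all tested probe sets 31.4% were called, 18.4% lower and 13% higher, so 5 of 20 is near the background and is not a result about the tubulins as a group. At an unadjusted p under 0.05, limma gave 7 lower and 1 higher of the 20. It gave 2874 of all 6541 tested genes, at 1 probe set per gene and in either direction, so this count is not read as a result either. The median log2 difference, GFP-positive minus GFP-negative, was -0.39 over the 20 tubulin probe sets and -0.18 over all tested. It was -0.07 for the 8 tested alpha-tubulin and -0.75 for the 8 tested beta-tubulin probe sets. Signals of the fractions did not overlap for 3 of the 20, against 34.5% of all tested probe sets.

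**Figure D1:**
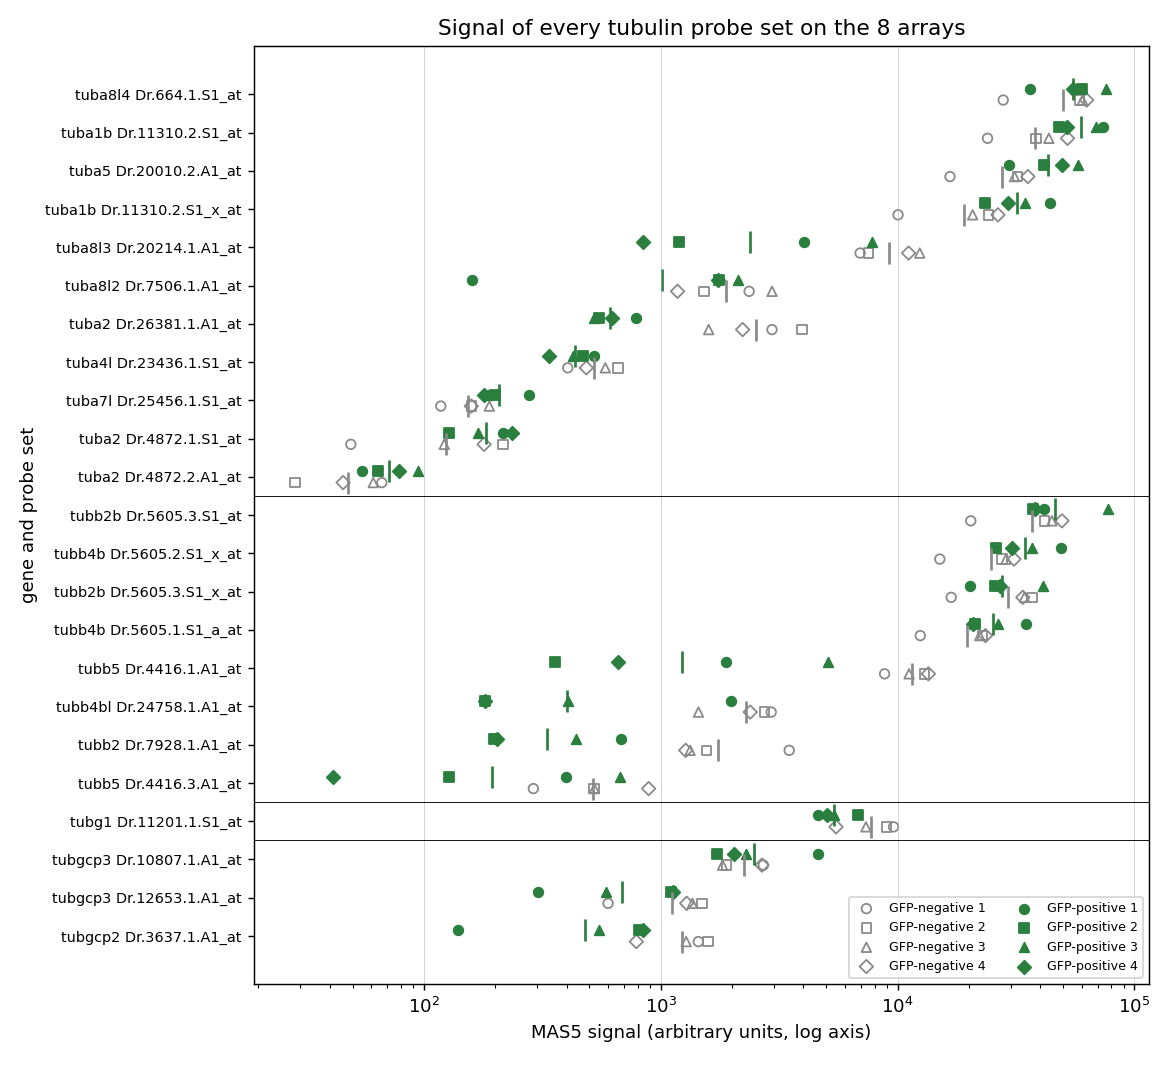
MAS5 signal (log axis, arbitrary units) of every tubulin probe set on the 8 arrays, with GFP-positive arrays filled, GFP-negative arrays open, 1 marker shape per pair and short vertical bars at the mean of the log2 signals. The 8 probe sets with a mean signal above 20000 overlap between the fractions, while the brighter tubb5, the tubb2 and the brightest tuba2 probe set lie lower on all GFP-positive arrays than on any GFP-negative array.

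Among the beta-tubulins, tubb5 had the largest fitted difference of the tested members. The signal of its brighter probe set was 1877, 359, 5062 and 660 on GFP-positive arrays 1 to 4 and 8810, 12982, 11179 and 13496 on GFP-negative arrays 1 to 4. The fractions did not overlap, with GFP-positive arrays 2 and 4 lowest and array 3 highest of its fraction. The log2 difference was -3.23 (SE 0.66, 95% confidence interval -4.79 to -1.66, n = 4 pairs, limma adjusted p = 0.013), a 9.36-fold lower level. Without pair 4 the call was lost (-2.85, adjusted p = 0.058), and without pair 3 the difference was -3.92 (adjusted p = 0.0085). The dimmer tubb5 probe set had signals of 398, 127, 670 and 41.1 on GFP-positive against 290, 523, 524 and 889 on GFP-negative arrays. The GFP-positive signal was the higher in pairs 1 and 3 and lower in pairs 2 and 4, and it lay above the 40th percentile on 2 of 4 GFP-positive arrays. With its dim GFP-positive arrays set to the percentile, its mean level was 1.74-fold lower. The fitted log2 difference was -1.41, with an interval of -3.36 to 0.53 that includes 0, and it missed the threshold (limma adjusted p = 0.22). That value rested on pair 4, as it was -0.41 without pair 4 and -2.04 without pair 1.

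The beta-tubulin gene tubb2 was lower in all 4 pairs and was called. Its signal was 682, 198, 437 and 203 for GFP-positive against 3486, 1561, 1330 and 1274 for GFP-negative arrays. The fractions did not overlap, and the paired log2 differences lay between -2.98 and -1.61. The fitted difference was -2.40 (SE 0.32, interval -3.15 to -1.65, limma adjusted p = 0.0040), or 5.27-fold lower. For tubb4bl, another beta-tubulin gene, the signal was 1987, 181, 404 and 182 against 2926, 2743, 1442 and 2386. The fractions overlapped through GFP-positive array 1, and all 4 pairs were lower. Its difference was -2.51 (SE 0.58, interval -3.89 to -1.13, limma adjusted p = 0.019), a call lost without pair 2 (-2.04, adjusted p = 0.068) or pair 4 (-2.10, adjusted p = 0.080).

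The other beta-tubulin genes, tubb2b and tubb4b, were not called. In mammals TUBB2B is an isotype of developing neurons and TUBB4B is made in many cell types. The tubb4b probe set with the suffix a gave 34749, 21162, 26555 and 20736 for GFP-positive against 12465, 22831, 22230 and 23502 for GFP-negative arrays. The fractions overlapped, and in pairs 2 and 4 the GFP-positive array was the lower. Its difference was 0.36 (SE 0.35, interval -0.47 to 1.19, limma adjusted p = 0.46). The second tubb4b probe set, with the suffix x, differed by 0.49 (interval -0.38 to 1.36, limma adjusted p = 0.34). For tubb2b, the probe set without a suffix letter gave 41528, 37229, 77543 and 38010 against 20373, 41668, 44856 and 49442. GFP-positive array 3 was the highest and GFP-negative array 1 the lowest. The difference was 0.32 (interval -0.47 to 1.11), and that of the probe set with the suffix x was -0.08 (interval -0.74 to 0.58), with limma adjusted p of 0.49 and 0.85. The suffix x marks probe sets with probes that also match other transcripts, so signals of these closely related genes may be mixed, and the suffix a marks probes shared by transcripts of 1 gene.

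Of the alpha-tubulins, tuba2 and tuba8l3 were called lower. The brightest tuba2 probe set had signals of 783, 549, 522 and 620 for GFP-positive against 2948, 3951, 1593 and 2216 for GFP-negative arrays. The fractions did not overlap, and the 4 GFP-positive arrays lay close together. The difference was -2.05 (SE 0.31, interval -2.77 to -1.33, n = 4 pairs, limma adjusted p = 0.0052), a 4.15-fold lower level. The 2 other tuba2 probe sets failed the filter. One read 127 to 236 on GFP-positive and 49.1 to 216 on GFP-negative arrays, and the dimmest read 54.8 to 94.6 and 28.5 to 66.4. For each, 3 of 4 pairs had the higher GFP-positive signal, opposite to the brightest probe set, and neither was called in a fit with no filter (limma adjusted p = 0.49 and 0.46, with 20.7% of all probe sets called there).

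The signal of tuba8l3 spread widely in the GFP-positive fraction. It was 4006, 1199, 7835 and 842 there and 6946, 7527, 12404 and 11129 in the GFP-negative fraction. All 4 pairs were lower, but GFP-positive array 3 lay above GFP-negative arrays 1 and 2. The difference was -1.96 (SE 0.55, interval -3.26 to -0.66, limma adjusted p = 0.035), or 3.89-fold lower. That call was lost with cyclic loess (-1.86, adjusted p = 0.0504) and without pair 2 (-1.73, adjusted p = 0.12) or pair 4 (-1.37, adjusted p = 0.11).

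The probe sets of tuba1b, tuba5 and tuba8l4 were not called. For tuba5 the signal was 29409, 41426, 57844 and 49700 for GFP-positive against 16642, 32112, 31164 and 35500 for GFP-negative arrays. It was the only tubulin probe set of the 23 with a higher GFP-positive signal in 4 of 4 pairs. Its difference of 0.64 (SE 0.26, interval 0.03 to 1.25) missed the threshold (limma adjusted p = 0.099), and it passed without pair 1 (0.58, adjusted p = 0.041). The tuba1b probe set without a suffix letter gave 73491, 48243, 68591 and 51991 against 23980, 38452, 43529 and 52202. The fractions overlapped, and pair 1 held the widest gap, with a paired log2 difference of 1.62 against -0.01 in pair 4. Its fitted difference was 0.65 (interval -0.14 to 1.44, limma adjusted p = 0.18), and that of the probe set with the suffix x was 0.74 (interval -0.22 to 1.70, adjusted p = 0.20). Without pair 1 these 2 values were 0.33 and 0.27. The signal of tuba8l4 was 36223, 59816, 75844 and 54984 against 27925, 58698, 60338 and 62857, with a difference of 0.13 (interval -0.47 to 0.74, limma adjusted p = 0.72). On another scaling its sign turned (-0.31 after quantile normalization and -0.16 after cyclic loess).

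The other alpha-tubulin genes were not called either. The signal of tuba4l was 523, 470, 426 and 338 for GFP-positive against 405, 658, 583 and 485 for GFP-negative arrays, with a difference of -0.27 (interval -0.99 to 0.45, limma adjusted p = 0.52). That of tuba8l2 was 159, 1761, 2116 and 1741 against 2361, 1521, 2951 and 1177. GFP-positive array 1 decided its value, since the difference was -0.90 (limma adjusted p = 0.37) with all pairs and 0.10 without pair 1. The probe set of tuba7l failed the filter, with signals of 180 to 276 and of 118 to 189.

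**Figure D2:**
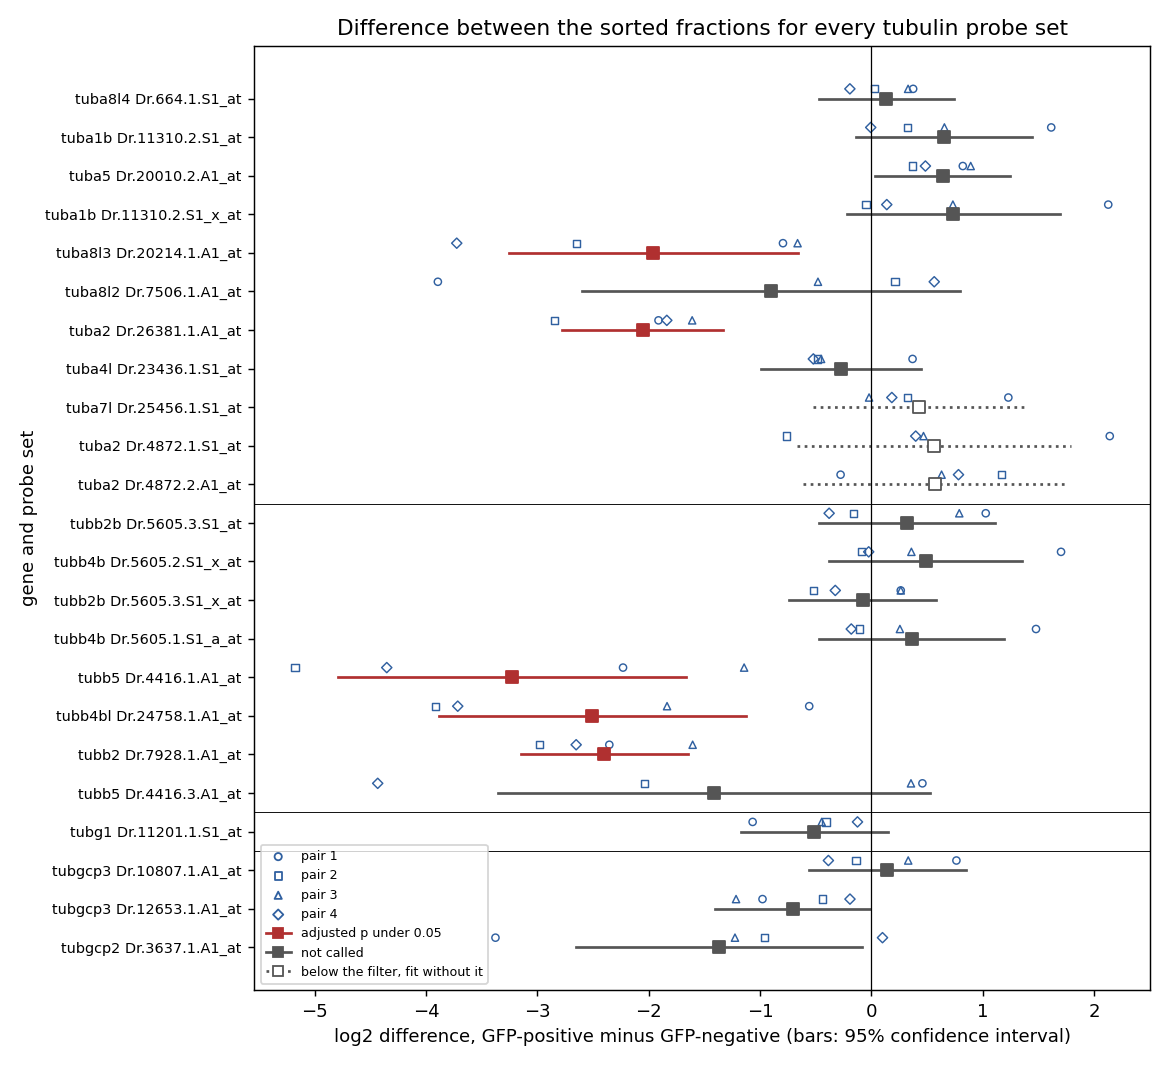
Log2 difference (GFP-positive minus GFP-negative) of every tubulin probe set, with squares at the fitted value, bars for the 95% confidence interval and small open markers for the 4 pairs. The 5 called probe sets have intervals wholly below 0, with fitted values from -3.23 for tubb5 to -1.96 for tuba8l3, and the intervals of tuba1b, tuba8l4, tubb2b and tubb4b include 0. Uncalled probe sets also clear 0, tubgcp2 (-2.65 to -0.08) and the dimmer tubgcp3 (-1.40 to -0.01) below it and tuba5 (0.03 to 1.25) above it.

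Neither the gamma-tubulin gene tubg1 nor its partners tubgcp2 and tubgcp3 were called. The partner genes tubgcp4, tubgcp5 and tubgcp6 had no probe set of a single symbol. Gamma-tubulin nucleates microtubules, and the proteins of tubgcp2 and tubgcp3 join it in the small complex that builds the ring. The signal of tubg1 was 4590, 6774, 5397 and 5042 for GFP-positive against 9614, 8983, 7353 and 5497 for GFP-negative arrays. It was lower in 4 of 4 pairs, with paired log2 differences from -1.07 to -0.12, and the fractions overlapped through GFP-positive array 2 and GFP-negative array 4. The fitted difference of -0.51 (SE 0.28, interval -1.17 to 0.15) did not pass (limma adjusted p = 0.20). For tubgcp2 the signal was 139, 813, 548 and 845 against 1440, 1583, 1280 and 788, with a difference of -1.37 (limma adjusted p = 0.096), or -0.70 without pair 1. The 2 tubgcp3 probe sets differed in sign, with 0.14 for the brighter and -0.71 for the dimmer (limma adjusted p = 0.74 and 0.11), and the first was -0.06 without pair 1. A probe set that carries both tubgcp5 and cyfip1, and so is no member, was lower in 4 of 4 pairs. It was not called either (-0.70, limma adjusted p = 0.10).

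The size of the change was compared between probe sets, pair by pair. In 24 comparisons of the paired log2 differences of probe sets, 8 within a gene and 16 between genes of a subfamily, 12 had the same sign in all 4 pairs. Such a comparison has the smallest exact two-sided permutation p that 4 pairs allow, 0.125 (adjusted p = 0.25 over the 24), so none could pass. Less the change of tubb2b (without a suffix letter), the reference taken for its highest mean signal, the log2 change of tubb5 (brighter probe set) was -5.02 to -1.93 over the 4 pairs, that of tubb4bl -3.76 to -1.59 and that of tubb2 -3.38 to -2.27. Less the change of tuba8l4, the reference among the alpha-tubulins by the same rule, that of tuba2 (brightest probe set) was -2.88 to -1.64 and that of tuba8l3 -3.53 to -0.99. The change of tuba5 was above that of tuba8l4 by 0.34 to 0.68.

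The 8 uncalled probe sets of tuba1b, tuba5, tuba8l4, tubb2b and tubb4b had mean signals above 20000, a limit chosen after the values were seen. Their median difference was 0.42, against 0.08 for the 258 other tested probe sets above that limit. Of those 258, 15.5% were called higher and 1.16% lower. No count on either side of that limit is read as a result. On GFP-negative array 1 all 8 had their lowest GFP-negative signal, as did 85.7% of the 258 other tested probe sets above that limit, and the 98th percentile of the signals was 14274 there against 18885 to 19417 on the other GFP-negative arrays. In pair 1 the median difference of the 8 was 1.25, and that of the 258 others was -0.24. Without pair 1 the 8 differences lay between -0.19 and 0.58, against -0.08 and 0.74 with all pairs.

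Neuronal transcripts were lower too. Of 12 tested neuronal marker genes 10 fell and 0 rose, with a median of -2.98. Over all tested genes 18.4% fell and 12.8% rose. The G protein subunit gene gng3 was at least 19.2-fold lower (limma adjusted p = 0.0024) and the RNA-binding protein gene elavl3, a marker of early neurons, fell by 4.57. The summed signal of the 12 ran from 1291 to 9930 on the GFP-positive and from 24268 to 46342 on the GFP-negative arrays. Of the 12 genes 9 were above the 40th percentile on at most 2 GFP-positive arrays. Those 9 could pass the filter only with GFP-negative arrays above it, so the filter partly fixed their direction. The median paired difference of the 12 genes was -2.33, -4.39, -1.25 and -4.67 in pairs 1 to 4. Over the same pairs the difference was -2.23, -5.18, -1.14 and -4.35 for tubb5, -0.79, -2.65, -0.66 and -3.72 for tuba8l3, and -0.56, -3.92, -1.84 and -3.72 for tubb4bl. For tubb2 it was -2.35, -2.98, -1.61 and -2.65. All of these were more negative in pairs 2 and 4 than in pairs 1 and 3. The medians of the 5 tested ciliated cell markers, -0.42, -1.26, -0.40 and -1.67, had that order too. GFP-positive arrays 2 and 4 also stood apart as arrays, with median signals of 275 and 277 against 371 to 421 on the other 6, and 40th percentiles of 168 and 170 against 203 to 283. The GAPDH control's 3'-end over 5'-end signal split the GFP-positive arrays the same way. It was 86.6 and 99.95 on arrays 1 and 3, and 31.3 and 45.6 on arrays 2 and 4. For tuba2 (brightest probe set) the paired differences were -1.91, -2.85, -1.61 and -1.84, and for muscle genes the medians were -5.66, -5.49, -2.66 and -4.71, neither with that order. The medians were -1.80, -0.94, -2.25 and -1.38 for erythroid genes and -1.77, -0.49, -0.54 and -0.78 for cycling cell markers, also without it. The part of neurons, of other cell types, of RNA quality or of GFP-positive arrays 2 and 4 in the differences was not tested. Fewer cells of a type and less RNA per cell cannot be told apart in sorted bulk RNA.

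**Figure D3:**
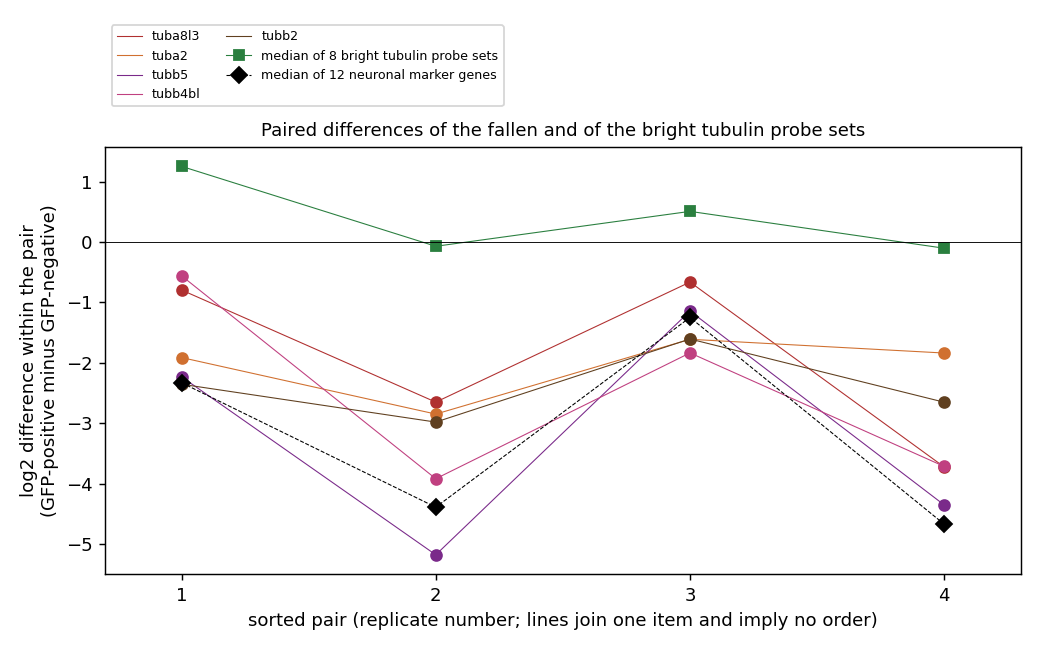
Log2 difference within each sorted pair for the 5 called tubulin probe sets, the median of the 8 tubulin probe sets with a mean signal above 20000 and the median of 12 neuronal marker genes. The lines of tubb5, tuba8l3, tubb4bl, tubb2 and the neuronal median are lowest in pairs 2 and 4, and the median of those 8 lies between -0.10 and 1.25.

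On the reference assembly GRCz12tu the genes tuba1c, tuba1a and tuba1b are neighbours, and 3 probe sets carry 2 of these symbols each, so they are no members and name no gene. The signal of the first, which carries tuba1c and tuba1b, was 4308, 281, 7678 and 1130 for GFP-positive against 14528, 35127, 27830 and 34224 for GFP-negative arrays. The fractions did not overlap, and the difference was -3.87 (SE 0.87, limma adjusted p = 0.017). Of those carrying tuba1a and tuba1b, the one with the suffix x differed by -2.84 (limma adjusted p = 0.024) and the other by -2.62, which did not pass (limma adjusted p = 0.071). The probe sets named for tuba1b alone, with 0.65 and 0.74, had the opposite sign to these 3, whose paired differences in pairs 2 and 4 were again the most negative, at -6.97 and -4.92 for the first.

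Genes that fold tubulin were called in neither direction. Tubulin is folded by prefoldin and the CCT chaperonin and joined into dimers by tubulin cofactors. Of 18 tested genes of this list 0 fell and 0 rose by limma, 0 at an unadjusted p under 0.05 as well. Of all 6541 tested genes, 18.4% fell, 12.8% rose and 2874 had an unadjusted p under 0.05 by limma. The median of the list was -0.24 against -0.22 over all tested genes. The chaperonin genes cct6a, cct2 and cct8 differed by -0.85, -0.97 and -0.78 and the prefoldin gene pfdn2 by 0.49 (lowest limma adjusted p = 0.13). In the list of the gamma-tubulin ring and centrosome, which holds tubgcp2 and tubgcp3 too, 0 of 7 were called by limma, with a median of -0.46, while 2 had an unadjusted p under 0.05, tubgcp2 and the ring component gene mzt2b (-0.68). The augmin genes haus6 and haus4 differed by -0.46 and -0.74.

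Of 8 tested genes for tubulin modification 1 rose (12.5%, against 12.8% of all tested genes) and 0 fell, with a median of -0.43. It was sirt2, whose mammalian product removes acetyl groups from alpha-tubulin and other proteins, with a mean signal of 6464 for GFP-positive against 829 for GFP-negative arrays (log2 difference 2.34, SE 0.46, limma adjusted p = 0.011). The tubulin ligase family genes ttll12 and ttll4 differed by 0.54 and -0.48 and svbp, a partner of the enzymes that remove the terminal tyrosine of alpha-tubulin, by -0.56, which did not pass (lowest limma adjusted p = 0.19).

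Genes of microtubule-associated proteins fell in 13 of 28 tested cases and rose in 2, with a median of -0.98, against 18.4% lower and 12.8% higher over all tested genes. These 13 were the only fallen genes of the 4 microtubule lists, and without pair 2 or pair 4 the fallen genes of the 4 lists numbered 5 and 4. Lower calls dropped over the whole array as well. They numbered 1805 of all 9801 tested probe sets with all pairs, 725 without pair 2 and 659 without pair 4. Of the 28 genes, the 4 with the smallest p were stmn4, map1aa, dpysl5a and mapre1a. The stathmin gene stmn4, whose product binds free tubulin dimers, was at least 4.37-fold lower (limma adjusted p = 0.0028), and map1aa, a gene of the neuronal MAP1 family that coats microtubules, at least 2.99-fold lower (limma adjusted p = 0.0084). The axon growth gene dpysl5a was at least 14.4-fold lower (limma adjusted p = 0.0090). Of these 4, mapre1a rose, at a mean signal of 21213 against 5472 (log2 difference 1.94, SE 0.33, limma adjusted p = 0.0074), and in 4 of 4 pairs. It encodes an EB1 plus-end binding protein. The related gene mapre1b was not called (-0.63, limma adjusted p = 0.13) and was higher in 0 of 4 pairs. The other called rise was that of mid1ip1b (0.92, limma adjusted p = 0.044). Of the 13, stmn4, map1aa and maptb were above the filter percentile on 0 GFP-positive arrays. For tacc2 it was 1 array, for dpysl5a and stmn1b 2, and for the others 3 or 4. All 13 were above it on 4 GFP-negative arrays, which alone meets the filter. A gene dim on most GFP-positive arrays was tested only if bright on GFP-negative ones. For such genes the filter partly fixed the direction. Several fallen members, among them stmn4, map1aa and dpysl5a, are genes of neurons, and the neuronal markers given above moved the same way. The 13 also hold clasp2, ckap5, katnal1, nusap1 and tacc2. Median paired differences of the 28 genes were -1.32, -0.94, -0.40 and -1.05 in pairs 1 to 4, without the order of the neuronal markers. The part of neurons in this list was not tested.

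**Figure D4:**
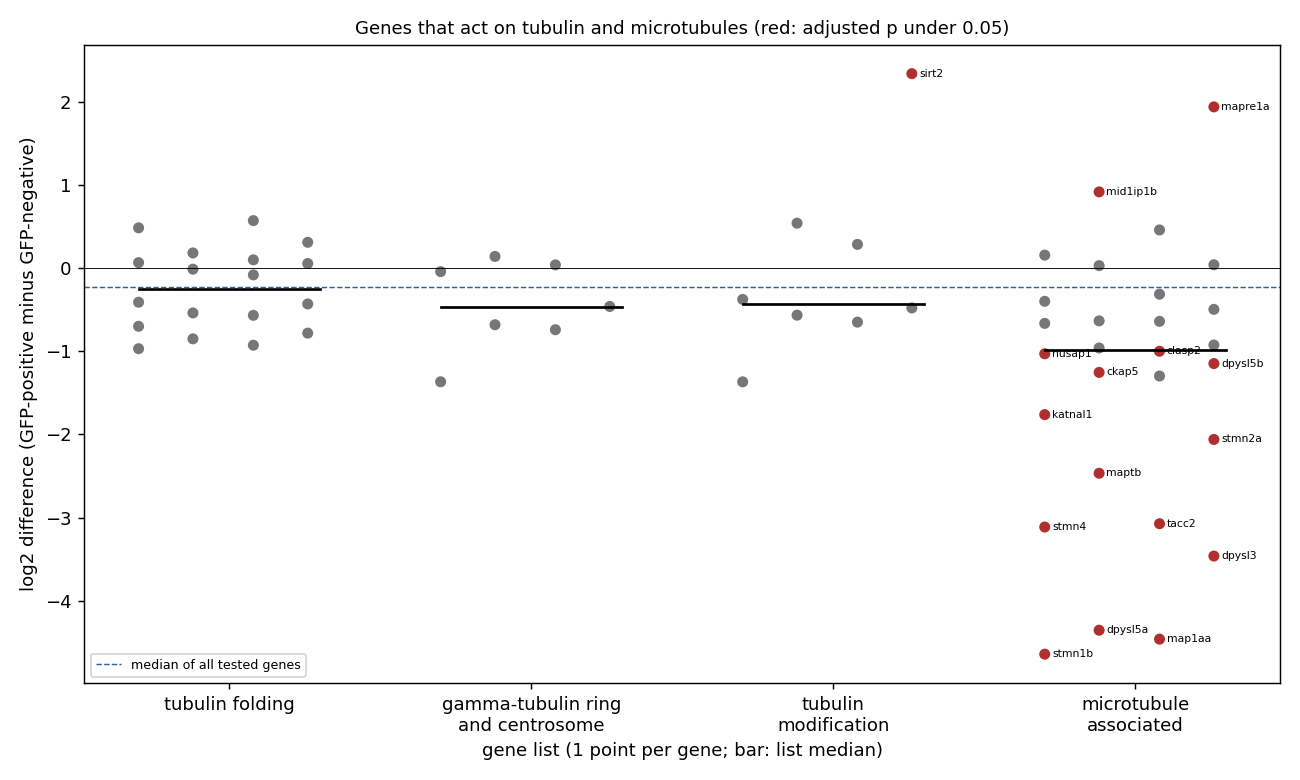
Log2 difference of each tested gene in 4 lists of genes that act on tubulin and microtubules, with red points for called genes, bars at the list medians and a dashed line at the median of all tested genes, -0.22. In the list of microtubule-associated proteins 13 called genes lie below and 2 above 0, and the other lists hold 1 called gene, sirt2.

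Markers of cycling cells were called lower about as often as all genes, but their median was lower. Of 20 tested 4 fell (20%, against 18.4% of all tested genes) and 0 rose, with a median of -1.07 against -0.22 over all tested genes. At an unadjusted p under 0.05 in either direction, limma gave 12 of the 20, and 2874 of all 6541. The replication gene mcm5 and the nucleotide synthesis gene tyms fell by 1.59 and 1.32. The summed signal of the 20 ran from 52687 to 152222 on the GFP-positive and from 149737 to 223716 on the GFP-negative arrays. A control read as a measure of RNA quality differed too. The GAPDH control's 3'-end signal over its 5'-end signal was 86.6, 31.3, 99.95 and 45.6 on GFP-positive arrays 1 to 4. On GFP-negative arrays 1 to 4 it was 75.4, 22.6, 18.2 and 21.6, the lower in 4 of 4 pairs. The part of RNA quality in the tubulin differences was not tested.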

How the data were processed

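The deposited values are linear intensities, MAS5 signals per the submitters' processing notes, which give no version. The trimmed mean (without 2% at each end) was 1499.09 to 1499.50 on the 8 arrays. Gene names came from the platform annotation, updated by gene identifier, and 115 controls were left out. Signals were taken to log2 and fitted in limma 3.58.1 (R 4.3.3) with a variance trend and Benjamini-Hochberg adjustment, and the fit was tested on simulated data. The replicate number was a block, because the design text pairs the fractions. Deviations from the group means correlated at 0.40, 0.26, 0.18 and -0.12 within pairs 1 to 4. Where 2 or more of the 4 arrays of the lower fraction were not above the 40th percentile, the fold is a bound ("at least"), with those arrays at no less than the percentile. A gene in a list stands for its brightest tested probe set. All tubulin probe sets are named, with up to 4 genes per microtubule list and 2 per marker list by smallest p. Further genes of the thrombocyte, erythroid and microtubule-associated lists are named where needed to show the other direction, other calls or dim signals. The members and lists were chosen with earlier results of these data known. Alternatives changed the block, scaling, filter, variance trend, pseudocount, probe sets per gene and each pair.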

Additional observations from a re-analysis of the deposited data

Results flagged for a closer look

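In 8 of 69 sets of 4 values (each tubulin probe set in each fraction, and its paired differences) 1 value stood apart from the other 3 beyond Dixon's limit for 4 values. Chance gives about 1 in 20 for independent sets. These sets are not independent, since the paired differences are made from the same signals and 1 array can mark several probe sets. The count therefore measures no excess over that rate. On GFP-negative array 1 the log2 signal stood below the others for 5 probe sets, with 14.77 for tuba8l4 (others 15.84 to 15.94), 14.04 for the tubb2b probe set with the suffix x (15.04 to 15.17), 13.61 for the tubb4b probe set with the suffix a (14.44 to 14.52), 13.88 for that with the suffix x (14.76 to 14.92) and 9.23 for the dimmer tubgcp3 probe set (10.33 to 10.54). On GFP-positive array 1 that of tuba8l2 was 7.31, against 10.77 to 11.05 on the others. On GFP-positive array 3 that of tubb2b without a suffix letter was 16.24, above the 15.18 to 15.34 of the others. For tuba4l the paired difference was 0.37 in pair 1 and -0.52 to -0.45 in the other pairs.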

How the results depend on the processing

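The count of tubulin probe sets called lower was 5, and it was 4 after cyclic loess and 5 with no replicate block, under quantile normalization, median centring, no filter, a 60th percentile filter, no variance trend, a pseudocount of 100 and 1 probe set per gene. Leaving out 1 pair at a time gave 2 to 5 lower, with 3 without pair 2 and 2 without pair 4, and 0 to 1 higher. Calls moved over the whole array too. Of all 9801 tested probe sets, 1805 were called lower in the main fit, 725 without pair 2 and 659 without pair 4. Those called higher numbered 1273 in the main fit and 1466 without pair 1, the setting with the 1 higher tubulin call. Tubulin probe sets called higher were 0 under the other alternatives. The calls of tuba2 and tubb2 held in all 12 alternatives that tested them, with differences from -2.20 to -1.79 and from -2.66 to -2.07. Over the 4 microtubule lists 13 genes were lower and 3 higher, and with no replicate block 11 and 3. The lower count was 9 after median centring, 10 after quantile normalization, cyclic loess or the 60th percentile filter, 12 with no variance trend and 13 with no filter or a pseudocount of 100, and the higher count was 2 to 3. Leaving out pairs gave 4 to 14 lower and 2 to 3 higher. Only uncalled members changed sign. Leaving out pairs took tuba8l2 from -1.39 to 0.10, the tubb2b probe set with the suffix x from -0.19 to 0.068 (0.0022 without pair 4, 0.11 after median centring), the tubb4b probe set with the suffix a from -0.011 to 0.54 and the brighter tubgcp3 probe set from -0.064 to 0.32. Quantile normalization gave -0.31 for tuba8l4 and -0.10 for tubb2b without a suffix letter, and cyclic loess gave -0.16 for tuba8l4. These scalings moved the median of all tested probe sets from -0.18 to -0.07 and -0.06, and median centring moved it to 0.0034. The cause of each change was not tested.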
